A study of Mus musculus with 6 samples.

Results

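The nuclear genes that encode subunits of respiratory complexes III, IV and V were compared between hearts of wild-type (WT) and *Pkm1* knockout (KO) mouse embryos. Members were taken by name: every row of the count table whose symbol begins with Uqcr, Cox4, Cox5, Cox6, Cox7, Cox8 or Atp5, plus *Cyc1* and *Cycs*, leaving out symbols that contain -ps, which removed 0 rows. This gave 43 of the 13809 genes in the table, 9 of complex III, 15 of complex IV, 15 of complex V and 4 others. The other 4 were *Cycs*, which encodes the electron carrier cytochrome c, *Cox7a2l*, whose protein ties complexes III and IV together, and *Atp5s* and *Atp5sl*, which share the name of ATP synthase genes without encoding its standard subunits. All 43 genes had enough counts to be tested. Subunits encoded by mitochondrial DNA, and the isoforms *Cox7b2* and *Cox8c*, were not analysed here.

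RNA-seq libraries were made from total RNA depleted of ribosomal RNA, 3 from WT and 3 from KO hearts, all at embryonic day 18.5 (E18.5). The labels call the tissue heart, and the results section of the study describes ventricular tissue. KO embryos carry a constitutive homozygous deletion, made by injecting Cas9 mRNA and guide RNAs into zygotes of BDF1 mice (a C57BL/6J and DBA/2 hybrid), which puts an early stop codon into the *Pkm1* transcript, so the allele is present in every cell type rather than in cardiomyocytes alone. WT embryos carry no engineered allele, and neither group received a treatment. Nothing in the labels states how many hearts went into a library or which sex the embryos were, so p-values measure the spread between these libraries.

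Electrons from complexes I and II reach complex III through ubiquinone, pass by way of cytochrome c to complex IV (cytochrome c oxidase) and end on oxygen, and complexes I, III and IV pump protons out of the mitochondrial matrix. Complex V, the ATP synthase, lets the protons flow back through its membrane part Fo and makes ATP in its catalytic head F1. Several subunits of complex IV exist as a muscle form and a ubiquitous form, often called the heart and liver isoforms, and in rodents the muscle forms take over in heart and skeletal muscle as these tissues mature around birth.

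Library totals ranged from 15567624 to 19875546 counts, at which 3 counts correspond to 0.151 to 0.193 CPM (counts scaled to library size with the TMM method). The 43 members together took 1.62% to 1.70% of the counts. *Pkm*, the targeted gene, was at 1294, 1296 and 1366 CPM in WT and at 547, 530 and 549 CPM in KO hearts. One WT library stood apart from the other two WT libraries over the members: the chi-square per degree of freedom of member counts was 2.45 between WT a and WT b, and 19.9 and 14.5 between WT c and each of them. Against the KO libraries it was 7.43 to 8.83 for WT a and 9.44 to 11.9 for WT b. Over the members, WT c thus differed more from WT a and WT b than the KO libraries did. Over all genes the order was reversed. WT c gave 3.75 and 3.23 against WT a and WT b, which gave 15.5 to 18.6 against the KO libraries. WT c was the highest WT library for 26 of the 43 members and the lowest for 14, and among 1086 genes with a transcript under 1000 bases it was the highest for 498. The Y-linked *Ddx3y*, *Eif2s3y*, *Kdm5d* and *Uty* had 0 counts in all KO libraries, where *Xist* averaged 2285 CPM against 5.26 CPM in WT, so sex and genotype cannot be told apart in any result here.

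Genes were called changed when the Benjamini-Hochberg adjusted p of the quasi-likelihood test in edgeR, taken over 13804 genes, was under 0.05. By this rule 17 of the 43 members (39.5%) were lower and 1 (2.33%) was higher in KO hearts, against 15.7% lower and 14.6% higher among all genes tested. Because the members are abundant, the closer background is the 3934 genes whose mean reached 50 CPM, of which 26.9% were lower and 13.1% higher, and 39 of the members had a WT mean that high. The changes were small. Among the members the log2 fold change, KO over WT, ran from -0.27 to 0.21 with a median of -0.08. The median was 0.00172 over all genes and -0.03 over the genes of at least 50 CPM. Without KO c the median of the members was -0.05. For all 43 members the 95% interval excluded a 1.5-fold change in either direction. Fold changes lay below 0 for 34 members and above 0 for 9, and for 2412 and 1522 of the 3934 genes of at least 50 CPM. The 3 KO libraries lay below all 3 WT libraries for 18 members (41.9%), against 21.4% of all genes. They lay above them for 1 member, against 21% of all genes. Of the 39 members with a WT mean of at least 50 CPM, 18 (46.2%) had all KO libraries lower. Among the 3934 genes of that level, KO libraries lay below all WT libraries for 1347 and above them for 709. In bulk tissue, fewer cells of a type and less RNA per cell cannot be told apart.

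**Figure D1:**
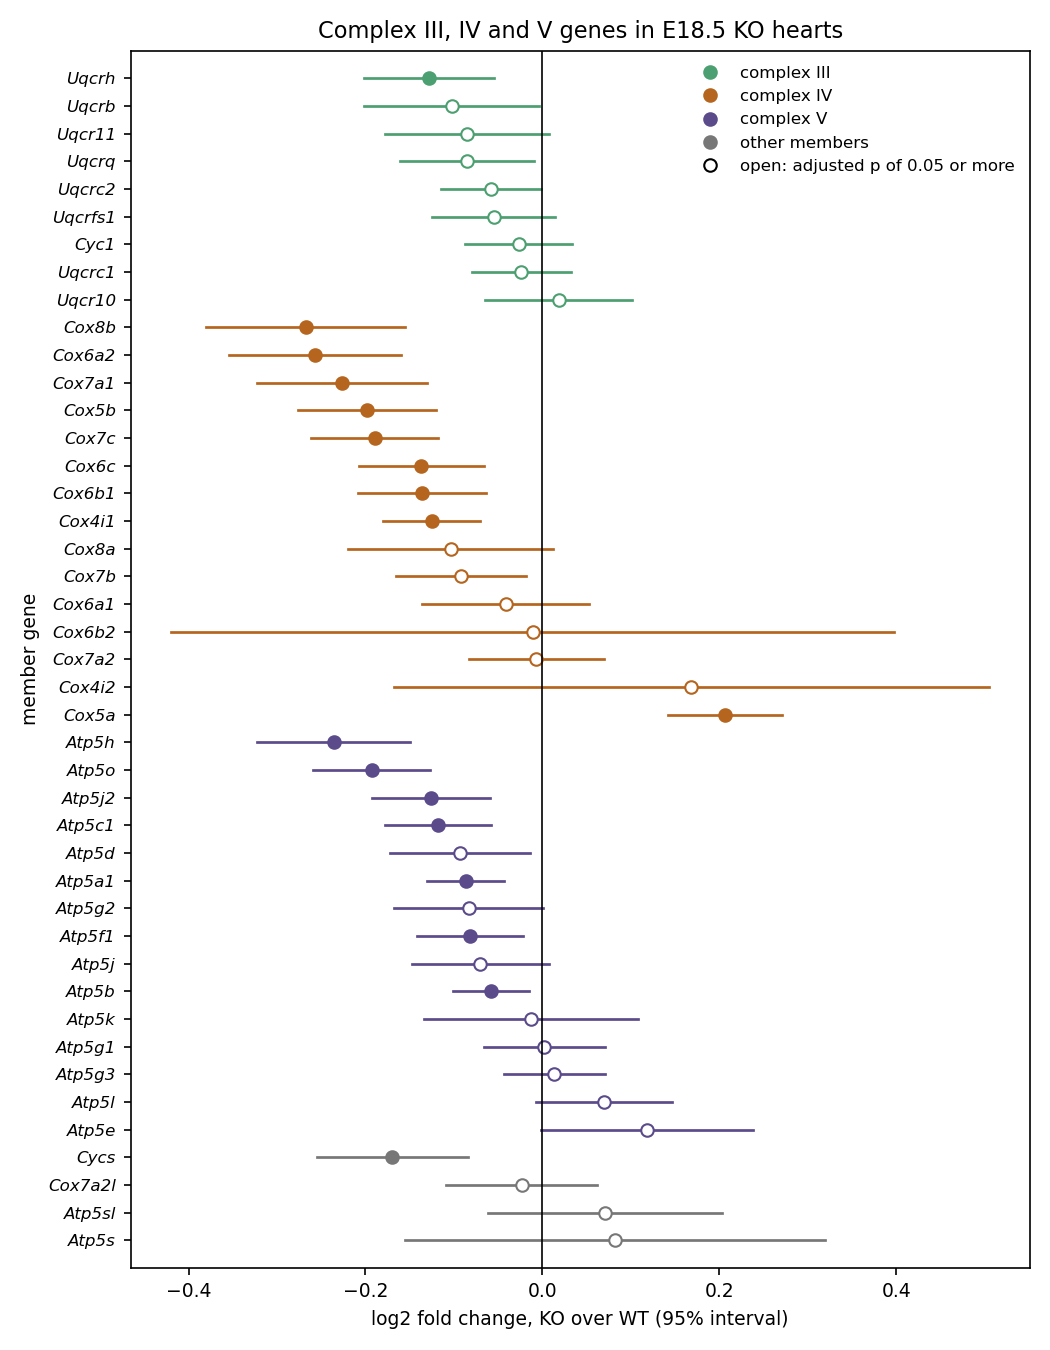
Log2 fold change of each of the 43 members, KO over WT, on the horizontal axis with its 95% interval, the genes being ordered by complex and then by fold change. Filled points have an adjusted p under 0.05: 17 lie left of 0 and only Cox5a lies right of it, and complex IV holds the largest changes in both directions, Cox8b and Cox5a.

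Cytochrome c oxidase held both the lowest and the highest of the fold changes that passed. Of its 15 genes, 8 were lower (53.3%), 1 was higher and 6 did not pass the test, with a median log2 fold change of -0.13. The lowered share was 15.7% of all genes tested and 26.9% of those of at least 50 CPM. The 3 most lowered were the muscle isoforms *Cox8b*, *Cox6a2* and *Cox7a1*, which encode small subunits that sit around the catalytic core. None of their ubiquitous partners *Cox8a*, *Cox6a1* and *Cox7a2* passed the test.

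*Cox6a2*, the muscle form of subunit VIa (chr7:128205435-128206387, minus strand, GRCm38), was at 239, 243 and 286 CPM in WT and at 213, 224 and 206 CPM in KO hearts. All KO libraries lay below all WT libraries, and the log2 fold change was -0.26 (standard error, SE, 0.0473, adjusted p = 0.000149, edgeR). Its partner *Cox6a1* (chr5:115345642-115348981, minus strand) was at 196, 206 and 236 CPM in WT and at 209, 210 and 200 CPM in KO hearts. Here the groups overlapped, and the log2 fold change of -0.04 (95% interval -0.14 to 0.05) had an adjusted p of 0.535 (edgeR).

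*Cox7a1*, the muscle form of subunit VIIa (chr7:30184144-30186078, plus strand), was at 83.6, 90.1 and 93.4 CPM in WT and at 77.3, 77.5 and 73.5 CPM in KO hearts. The groups did not overlap and the log2 fold change was -0.23 (SE 0.0469, adjusted p = 0.000543, edgeR). *Cox7a2* (chr9:79755361-79759878, minus strand) was at 213, 215 and 205 CPM in WT and at 205, 223 and 203 CPM in KO hearts. Its groups overlapped, with a log2 fold change of -0.01 (95% interval -0.08 to 0.07, adjusted p = 0.908, edgeR).

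*Cox8b*, the muscle form of subunit VIII (chr7:140898945-140900446, minus strand), was at 90.3, 92.8 and 107 CPM in WT and at 82.3, 83.7 and 74.3 CPM in KO hearts. It showed the lowest log2 fold change of all members, at -0.27 (SE 0.0546, adjusted p = 0.000480, edgeR), with no overlap between the groups. *Cox8a* (chr19:7215153-7217616, minus strand) was at 220, 212 and 272 CPM in WT and at 226, 220 and 207 CPM in KO hearts. The WT spread of *Cox8a* came from the single value of 272 in WT c, and its log2 fold change of -0.10 (95% interval -0.22 to 0.01, adjusted p = 0.170, edgeR) was 0.01 without that library.

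**Figure D2:**
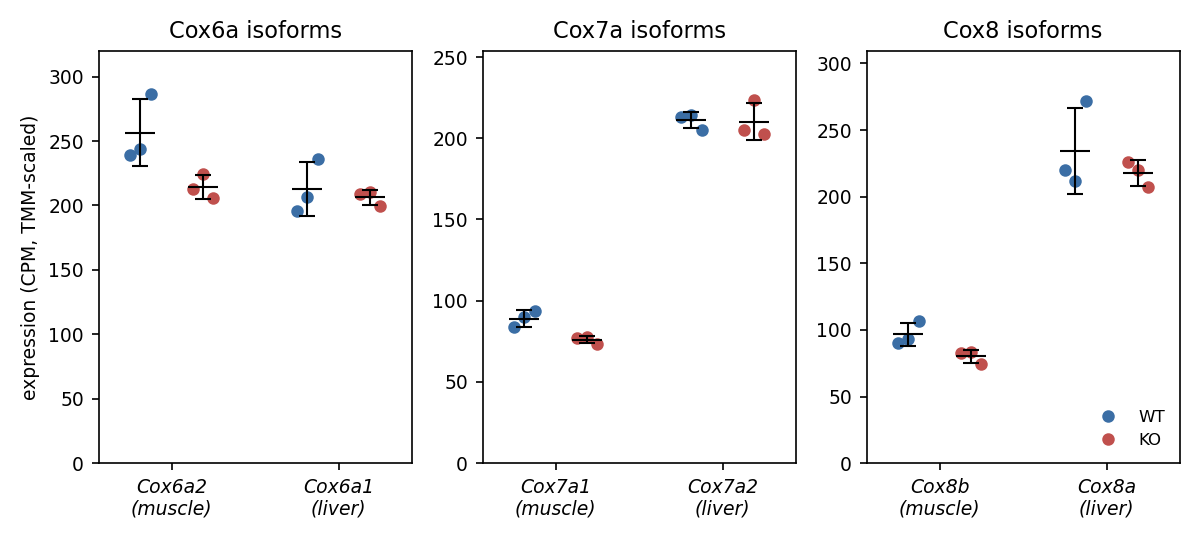
Expression in CPM of the muscle and liver isoforms of Cox6a, Cox7a and Cox8 in each library, with the mean and SD of the 3 libraries per genotype in black and each axis starting at 0. All KO points lie below all WT points for Cox6a2, Cox7a1 and Cox8b, whereas the ranges of the genotypes overlap for Cox6a1, Cox7a2 and Cox8a.

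A ratio taken within each library does not depend on how libraries are scaled. Per transcript length, the ratio of *Cox6a2* to *Cox6a1* was 1.03, 0.991 and 1.02 in WT and 0.855, 0.895 and 0.866 in KO hearts. *Cox6a2* thus made up 50.3% ± 0.476 of the pair in WT and 46.6% ± 0.594 in KO hearts (SD, n = 3 each). The ratio of *Cox7a1* to *Cox7a2* was 0.658, 0.704 and 0.762 in WT and 0.632, 0.582 and 0.608 in KO hearts. For *Cox8b* over *Cox8a* it was 0.628, 0.670 and 0.600 in WT and 0.557, 0.582 and 0.549 in KO hearts. The 3 muscle shares thus did not overlap between the genotypes, KO being lower. On the log2 scale the ratios differed, KO minus WT, by -0.22, -0.22 and -0.17, with standard deviations between libraries of 0.0312, 0.0861 and 0.0646. Each difference had a two-sided exact permutation p of 0.1, the smallest that 3 libraries against 3 allow, and 0.167 after Benjamini-Hochberg adjustment over the 5 isoform pairs tested. WT c was the highest WT library for 5 of these 6 genes. When single libraries were dropped, the differences stayed between -0.23 and -0.20 for Cox6a, between -0.27 and -0.17 for Cox7a and between -0.21 and -0.13 for Cox8.

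**Figure D3:**
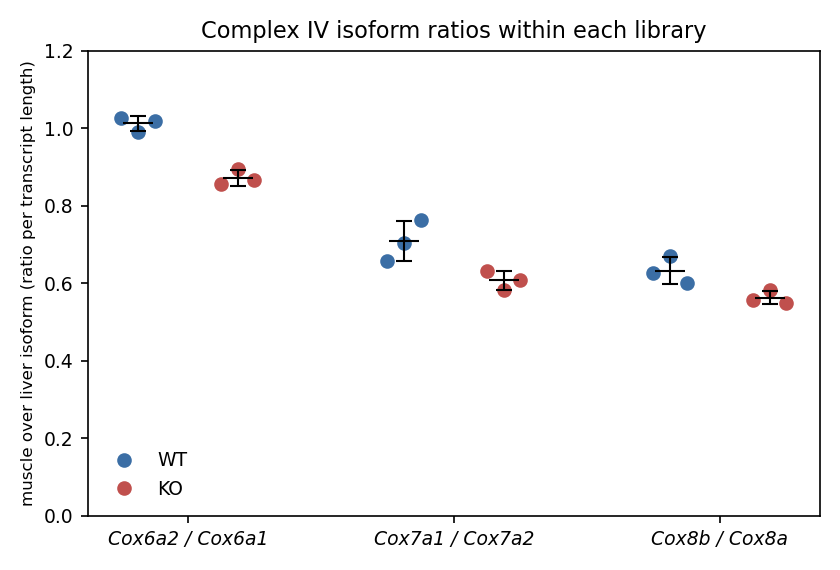
Ratio of the muscle to the liver isoform per transcript length within each library, with mean and SD in black (n = 3 per genotype). For each pair the KO points lie below the WT points, and for Cox6a they run from 0.855 to 0.895 in KO and from 0.991 to 1.03 in WT hearts.

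In the other 2 isoform pairs of complex IV a single gene carried nearly the whole signal. *Cox4i2*, the form of subunit IV known from lung and low oxygen, was at 4.52, 4.69 and 5.26 CPM in WT and at 6.57, 5.68 and 3.97 CPM in KO hearts, and *Cox6b2*, known from testis, was at 2.61, 2.45 and 2.37 CPM in WT and at 2.38, 2.59 and 2.42 CPM in KO hearts. Both overlapped between the genotypes, as did their ratios to the main isoforms (exact permutation p of 0.4 and 0.3). *Cox4i1*, the general form of subunit IV, was at 659, 685 and 689 CPM in WT and at 628, 616 and 620 CPM in KO hearts. It was lower without overlap, with a log2 fold change of -0.13 (SE 0.0265, adjusted p = 0.000704, edgeR). *Cox6b1*, which faces cytochrome c, was at 419, 427 and 471 CPM in WT and at 406, 402 and 389 CPM in KO hearts, a log2 fold change of -0.14 (SE 0.0352, adjusted p = 0.00423, edgeR) that was -0.08 without WT c and still passed.

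The lowered muscle isoforms and the increase in *Cox5a* involve single genes. Their promoter sequences are given, with those of *Cox7a2* and *Cox8a*. They are from RefSeq on GRCm38.p6, run 5′ to 3′ on the strand of the gene from 250 bases before to 50 after the transcription start, and hold in capitals any match on either strand to 4 motifs: CCAAT (the CCAAT box), GGGCGG (the GC box), CCGGAAG (the ETS motif) and CANNTG (the E-box). *Cox7a1* and *Cox7a2* lie at chr7:30183921-30184220 (plus strand) and chr9:79759804-79760103 (minus strand), *Cox8b* and *Cox8a* at chr7:140900397-140900696 and chr19:7217567-7217866 (both minus strand), and *Cox5a* at chr9:57520982-57521281 (plus strand). *Cox6a2* had no entry.
Cox7a1: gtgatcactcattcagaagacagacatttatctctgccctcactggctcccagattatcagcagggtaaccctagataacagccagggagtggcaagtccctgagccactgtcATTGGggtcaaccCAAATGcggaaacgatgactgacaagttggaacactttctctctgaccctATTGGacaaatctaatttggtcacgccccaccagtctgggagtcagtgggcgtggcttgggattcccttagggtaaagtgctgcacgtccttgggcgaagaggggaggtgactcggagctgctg
Cox7a2: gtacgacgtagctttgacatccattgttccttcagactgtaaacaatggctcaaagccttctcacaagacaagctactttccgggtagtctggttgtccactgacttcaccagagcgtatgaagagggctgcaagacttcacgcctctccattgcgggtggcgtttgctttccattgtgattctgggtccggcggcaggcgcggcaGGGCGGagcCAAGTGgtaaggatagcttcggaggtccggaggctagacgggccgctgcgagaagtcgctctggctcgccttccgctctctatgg
Cox8b: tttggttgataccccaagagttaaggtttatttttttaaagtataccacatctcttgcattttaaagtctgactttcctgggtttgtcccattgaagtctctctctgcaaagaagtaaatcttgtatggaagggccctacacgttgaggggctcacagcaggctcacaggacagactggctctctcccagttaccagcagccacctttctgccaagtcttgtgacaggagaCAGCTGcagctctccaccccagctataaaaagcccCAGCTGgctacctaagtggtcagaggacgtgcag
Cox8a: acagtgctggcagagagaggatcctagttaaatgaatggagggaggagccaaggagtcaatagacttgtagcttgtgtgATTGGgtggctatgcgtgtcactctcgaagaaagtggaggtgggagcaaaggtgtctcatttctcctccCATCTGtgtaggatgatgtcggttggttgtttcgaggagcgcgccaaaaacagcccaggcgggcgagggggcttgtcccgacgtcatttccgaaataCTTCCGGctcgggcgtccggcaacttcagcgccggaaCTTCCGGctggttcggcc
Cox5a: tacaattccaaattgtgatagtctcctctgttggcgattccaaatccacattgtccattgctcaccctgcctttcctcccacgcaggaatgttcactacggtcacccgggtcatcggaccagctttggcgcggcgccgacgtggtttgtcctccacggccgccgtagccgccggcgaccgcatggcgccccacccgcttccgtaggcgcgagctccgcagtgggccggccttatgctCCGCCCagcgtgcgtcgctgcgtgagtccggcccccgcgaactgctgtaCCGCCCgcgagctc
The *Cox7a1* window held 2 CCAAT boxes and 1 E-box, and that of *Cox7a2* held 1 GC box and 1 E-box. *Cox8b* had 2 E-boxes and none of the other motifs, whereas *Cox8a* had 2 copies of the ETS motif, 1 CCAAT box and 1 E-box. The *Cox5a* window held 2 GC boxes. These matches describe letters, not bound sites.

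Of the 43 members, 34 had a promoter entry, and those without one were *Atp5a1*, *Cox4i1*, *Cox4i2*, *Cox6a2*, *Cox6c*, *Cyc1*, *Uqcrb*, *Uqcrc2* and *Uqcrq*. CCAAT, the motif bound by the NFY factor that the study follows, was found in 19 of the 34 (55.9%) and in 41.1% of 27025 genes with an entry (37.4% of 32851 promoters). In this paragraph all genes means those 27025, whether or not they were among the genes tested in these hearts. It stood in 8 of 13 members that were lower in KO hearts and in 11 of 20 that did not pass the test. CCGGAAG, bound by GABP and other ETS factors, was found in 10 members (29.4%) and 9.93% of all genes, and the NRF1 motif in 4 members (11.8%) and 1.07% of all genes. All 4 members with the NRF1 motif, *Atp5g2*, *Atp5k*, *Cox6a1* and *Uqcrc1*, did not pass the test in KO hearts. Among all 34 members with an entry, 20 did not pass. AAGGTCA, a half-site of the oestrogen-related receptors, stood in 4 members (11.8%, against 5.38% of all genes), *Atp5e*, *Atp5g3*, *Atp5k* and *Atp5l*, which likewise did not pass. GGGCGG was found in 35.3% of the members and 38.2% of all genes, and CANNTG in 76.5% and 75.0%. CCGGAAG stood in 3 of the 13 lower members and in 7 of the 20 that did not pass. For GGGCGG these counts were 3 and 8, and for CANNTG 11 and 15. The splits by call were not tested for any motif. The YY1 motif stood in 1 member, *Atp5sl* (0.755% of all genes), and the MEF2 motif in 0 of the 34 (3.70% of all genes). Both strands were searched for every motif, and a motif was counted whether or not it overlapped another.

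Of the remaining subunits of complex IV, *Cox5b*, *Cox7c* and *Cox6c* were lower, *Cox5a* was higher and *Cox7b* did not pass the test. *Cox5b*, a zinc-binding subunit on the matrix side, was at 304, 310 and 335 CPM in WT and at 291, 271 and 265 CPM in KO hearts (log2 fold change -0.20, SE 0.0377, adjusted p = 0.000220, edgeR). *Cox7c*, a membrane-spanning subunit, was at 304, 296 and 279 CPM in WT and at 259, 265 and 248 CPM in KO hearts (log2 fold change -0.19, SE 0.0349, adjusted p = 0.000152, edgeR). *Cox6c*, also in the membrane, was at 390, 402 and 433 CPM in WT and at 383, 370 and 361 CPM in KO hearts (log2 fold change -0.14, SE 0.0344, adjusted p = 0.00340, edgeR). In all 3 genes the groups did not overlap. The X-linked *Cox7b* was at 324, 331 and 346 CPM in WT and at 319, 326 and 293 CPM in KO hearts, overlapped, and did not pass (log2 fold change -0.09, adjusted p = 0.0541, edgeR). *Cox7c* shares 53.0% of its 50-base words with other annotated genes, most with the pseudogene *Gm10012*, *Cox5b* shares 25.9% and *Cox6c* 21.1%, so their counts are less certain than those of *Cox7a1*, *Cox7a2*, *Cox8a*, *Cox8b* and *Cox6b1*, which share 0%.

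*Cox5a* moved the other way. It encodes the matrix-side subunit Va, which joins the growing enzyme early, together with the product of *Cox4i1*. Its values were 295, 285 and 287 CPM in WT and 343, 335 and 324 CPM in KO hearts. The groups were well apart, and the log2 fold change was 0.21 (SE 0.0312, 95% interval 0.14 to 0.27, adjusted p = 1.20e-05, edgeR), which put the KO mean at 115% of the WT mean. *Cox5a* (chr9:57521274-57532426, plus strand) lies 2.12 Mb from *Pkm*, the edited gene, closer than any other member. The other members on chromosome 9 are *Atp5l*, at 14.74 Mb on the same side, *Cox7a2*, at 20.08 Mb on the far side, and *Uqcrc1*, at 49.26 Mb, and none of these passed the test. Of 43 tested genes within 2.5 Mb of *Pkm*, 7 were lower and 9 higher (37.2% called), compared with 30.3% of 12534 genes on the other autosomes. The called share was similar further out, 35.6% at 2.5 to 5 Mb, 37.5% at 5 to 10 Mb and 37.3% at 10 to 20 Mb. Beyond 20 Mb on chromosome 9 it was 29.5%. The median size of the log2 fold change was 0.18 within 2.5 Mb of *Pkm* and 0.13 on the other autosomes. The part of this neighbourhood in the *Cox5a* difference was not tested. *Cox5a* also overlaps the antisense gene *Gm26631*, and reads of these genes cannot be told apart if strand was not used in counting. Of the 50-base words of *Cox5a*, 32.0% occur in other annotated genes, most of them in *Gm26631*.

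Complex III held the fewest genes and the fewest calls. Of its 9 genes 1 was lower (11.1%), 0 were higher and 8 did not pass the test, with a median log2 fold change of -0.06. The lowered share was 15.7% among all genes tested and 26.9% among those of at least 50 CPM. Differences between the complexes were not tested. The lowered gene was *Uqcrh*, the hinge protein that helps cytochrome c dock, at 291, 294 and 304 CPM in WT and 277, 282 and 254 CPM in KO hearts. The groups did not overlap (log2 fold change -0.13, SE 0.0357, adjusted p = 0.00766, edgeR), but without KO c the call was lost, at a log2 fold change of -0.08. The catalytic subunits did not pass: *Cyc1*, which encodes cytochrome c1, was at 441, 420 and 415 CPM in WT and at 416, 415 and 421 CPM in KO hearts, and *Uqcrfs1*, the Rieske iron-sulphur protein, was at 331, 325 and 303 CPM in WT and at 300, 316 and 308 CPM in KO hearts. Their log2 fold changes were -0.03 (95% interval -0.09 to 0.03) and -0.05 (95% interval -0.12 to 0.01). Of the core proteins, *Uqcrc1* had a log2 fold change of -0.02 (95% interval -0.08 to 0.03) and *Uqcrc2* one of -0.06 (adjusted p = 0.110, edgeR), although all KO libraries of *Uqcrc2* lay below its WT libraries. The small subunits *Uqcrb*, *Uqcr11* and *Uqcrq* had log2 fold changes of -0.10, -0.09 and -0.09, and *Uqcr10* one of 0.02.

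Of the carriers and linkers around complex III, only cytochrome c itself changed. *Cycs* was at 278, 288 and 322 CPM in WT and at 266, 273 and 251 CPM in KO hearts, all KO libraries being lower (log2 fold change -0.17, SE 0.0416, adjusted p = 0.00277, edgeR). Without WT c its log2 fold change was -0.11, and it still passed. It shares 28.5% of its 50-base words with other genes, most with the pseudogene *Gm10053*. *Cox7a2l*, the linker of complexes III and IV, was at 132, 141 and 148 CPM in WT and at 136, 136 and 143 CPM in KO hearts, which overlapped (log2 fold change -0.02, 95% interval -0.11 to 0.06).

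Complex V had 7 lowered genes of 15 (46.7%), 0 higher and 8 that did not pass, with a median log2 fold change of -0.08. Of all genes tested 15.7% were lower, and of those of at least 50 CPM 26.9%. In the F1 head 3 of 5 genes were lower. *Atp5b*, the catalytic beta subunit and the most abundant member, was at 3204, 3212 and 3083 CPM in WT and at 3040, 3063 and 3020 CPM in KO hearts (log2 fold change -0.06, SE 0.0208, adjusted p = 0.0343, edgeR). *Atp5a1*, the alpha subunit that alternates with it, was at 2455, 2454 and 2526 CPM in WT and at 2312, 2325 and 2365 CPM in KO hearts (log2 fold change -0.09, SE 0.0212, adjusted p = 0.00271, edgeR). Neither overlapped, but *Atp5b* passed the test in only 7 of 16 alternative analyses. *Atp5c1*, the gamma subunit of the rotating shaft, was at 595, 596 and 604 CPM in WT and at 569, 559 and 526 CPM in KO hearts (log2 fold change -0.12, SE 0.0292, adjusted p = 0.00300, edgeR). The other shaft subunits did not pass: *Atp5d* had a log2 fold change of -0.09 (adjusted p = 0.0700, edgeR), and *Atp5e*, the epsilon subunit, was at 97.4, 105 and 82.8 CPM in WT and at 99.6, 111 and 101 CPM in KO hearts, overlapping (log2 fold change 0.12, adjusted p = 0.126, edgeR).

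Among the 10 genes of the stalks and the membrane part Fo, 4 were lower, beside 15.7% of all genes and 26.9% of those of at least 50 CPM. The largest changes were in the side stalk that holds F1 still. *Atp5h*, its subunit d, was at 348, 378 and 414 CPM in WT and at 336, 320 and 311 CPM in KO hearts (log2 fold change -0.24, SE 0.0422, adjusted p = 0.000108, edgeR). *Atp5o*, the OSCP subunit at the top of the stalk, was at 524, 538 and 583 CPM in WT and at 487, 478 and 474 CPM in KO hearts (log2 fold change -0.19, SE 0.0323, adjusted p = 4.60e-05, edgeR). Both were free of overlap, and about as many of their 50-base words are shared with other annotated genes, 50.5% for *Atp5h* and 50.3% for *Atp5o*. The gene sharing most with *Atp5h* is *Gm10250*, but for *Atp5o* it is another annotated gene of the same symbol, so these shares are not alike. *Atp5f1*, the stalk's subunit b, was at 530, 529 and 513 CPM in WT and at 493, 514 and 479 CPM in KO hearts, and its groups overlapped between WT c and KO b although it passed the test (log2 fold change -0.08, adjusted p = 0.0351, edgeR). It kept that call in 8 of 16 alternative analyses. The stalk's coupling factor 6, *Atp5j*, had a log2 fold change of -0.07 (95% interval -0.15 to 0.01). In the membrane, *Atp5j2*, subunit f, was at 235, 240 and 243 CPM in WT and at 222, 220 and 216 CPM in KO hearts (log2 fold change -0.13, SE 0.0322, adjusted p = 0.00390, edgeR). *Atp5l* and *Atp5k*, subunits g and e, which shape dimers of the enzyme, had log2 fold changes of 0.07 and -0.01 and did not pass.

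Subunit c, which forms the proton-driven ring of Fo, comes from 3 genes that encode the same mature protein behind different import signals. *Atp5g1* was at 343, 338 and 320 CPM in WT and at 320, 341 and 342 CPM in KO hearts, *Atp5g2* at 92.7, 94.4 and 95.6 and then 88.3, 90.4 and 88.2 CPM, and *Atp5g3* at 622, 620 and 599 and then 623, 635 and 602 CPM. The groups overlapped for *Atp5g1* and *Atp5g3*, whose log2 fold changes were 0.00 (95% interval -0.07 to 0.07) and 0.01 (95% interval -0.04 to 0.07). Those of *Atp5g2* did not overlap, but its log2 fold change of -0.08 (95% interval -0.17 to 0.00) did not pass (adjusted p = 0.128, edgeR). Per transcript length *Atp5g3* gave 860 CPM per kilobase in WT hearts, *Atp5g1* 560.1 and *Atp5g2* 129, an order kept in KO hearts at 868, 561 and 122 CPM per kilobase, with no overlap between these genes in either genotype. *Atp5g2* and *Atp5g1* share 87.4% and 66.0% of their 50-base words with other annotated genes and *Atp5g3* shares 0%, so the lower 2 levels are uncertain. *Atp5s* and *Atp5sl*, which are not standard subunits, were at 8.28 to 12.1 and 32.8 to 40.1 CPM over the 6 libraries and did not pass.

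Measured per transcript length, levels differed widely within each complex. In WT hearts *Atp5b* stood at 1653 ± 37.6 and *Atp5a1* at 1003 ± 16.8 CPM per kilobase (SD, n = 3), although F1 holds the same number of both subunits. They were followed by *Cox4i1* at 910 ± 21.6, *Atp5g3* at 860 ± 17.9 and *Cox6c* at 812 ± 44.5 CPM per kilobase, and the ranges of *Atp5g3* and *Cox6c* overlapped. The muscle isoforms were at 377 ± 38.2 for *Cox6a2*, 268 ± 24.4 for *Cox8b* and 227 ± 12.6 for *Cox7a1*, and their liver partners at 372 ± 36.5 for *Cox6a1*, 426 ± 59.0 for *Cox8a* and 320 ± 7.49 for *Cox7a2*, so only *Cox6a2* was level with its partner. Cytochrome c lay at 94.9 ± 7.44 CPM per kilobase, below every subunit gene except *Cox4i2* and *Cox6b2*.

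Summed over its members, complex III was at 2799, 2816 and 2854 CPM in WT and at 2734, 2762 and 2649 CPM in KO hearts. Complex IV was at 3744, 3803 and 4048 CPM in WT and at 3650, 3633 and 3470 CPM in KO hearts, and complex V was at 9896, 9968 and 9954 CPM in WT and at 9465, 9506 and 9322 CPM in KO hearts. All 3 sums were lower in every KO library. The KO means were 96.2%, 92.7% and 94.9% of the WT means, log2 differences of -0.06, -0.11 and -0.08, each with a two-sided exact permutation p of 0.1, the smallest possible. These sums, unlike the isoform ratios, depend on scaling: when libraries were scaled by their totals alone, which moved the median of all genes to 0.05, the differences for complexes III, IV and V were -0.01, -0.06 and -0.03.

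**Figure D4:**
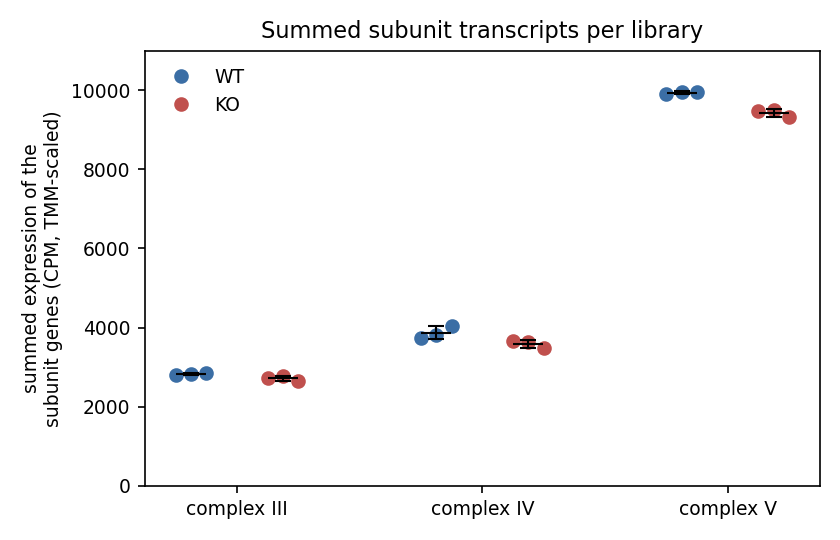
Summed CPM of the subunit genes of complexes III, IV and V in each library, with mean and SD in black (n = 3 per genotype) and an axis starting at 0. In each complex the KO points lie just below the WT points, the KO means being 96.2%, 92.7% and 94.9% of the WT means.

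The genes next to these subunits in the pathway were taken from lists by function. Beside the counts here and below, 15.7% of all genes were lower and 14.6% higher. Of the genes of at least 50 CPM, 26.9% were lower and 13.1% higher. No list was tested against these shares. Of 4 subunit or regulatory genes that the name rule misses, 2 were lower: *Usmg5*, a small ATP synthase subunit, with a log2 fold change of -0.15, and *Atpif1*, the inhibitor that blocks the reverse reaction of complex V, with -0.15. Complex II had 3 of 4 genes lower, *Sdhb*, *Sdhc* and *Sdha* with log2 fold changes of -0.15, -0.10 and -0.07. Of 36 complex I genes, taken by names beginning with Ndufa, Ndufb, Ndufc, Ndufs or Ndufv, 9 were lower and 1 higher, with a median of -0.04. They include *Ndufa4*, now assigned to complex IV, which did not pass (log2 fold change -0.01).

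Most assembly factors did not pass the test. Of 24 tested factors that build complex IV, 1 was lower and 3 were higher, with a median log2 fold change of 0.06. *Cox17*, the copper chaperone of cytochrome c oxidase, was the lowered one, at 43.3, 48.7 and 49.3 CPM in WT and 42.9, 40.1 and 34.1 CPM in KO hearts (log2 fold change -0.27, SE 0.0694, adjusted p = 0.00384, edgeR). *Coa7*, an assembly factor of the intermembrane space, was higher, at 19.7, 20.6 and 20.8 CPM in WT and 25.6, 24.6 and 26.3 CPM in KO hearts (log2 fold change 0.33, SE 0.0699, adjusted p = 0.000787, edgeR). *Higd1a*, a partner of complex IV that low oxygen induces, was at 70.5, 69.3 and 68.5 CPM in WT and 87.2, 89.2 and 76.7 CPM in KO hearts (log2 fold change 0.28, SE 0.0510, adjusted p = 0.000138, edgeR), and *Coa5* had a log2 fold change of 0.11. The groups of *Cox17*, *Coa7* and *Higd1a* did not overlap. Of 6 complex III factors, 0 passed in either direction, and of 3 complex V factors *Atpaf1*, the chaperone of the beta subunit, was higher with a log2 fold change of 0.18.

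**Figure D5:**
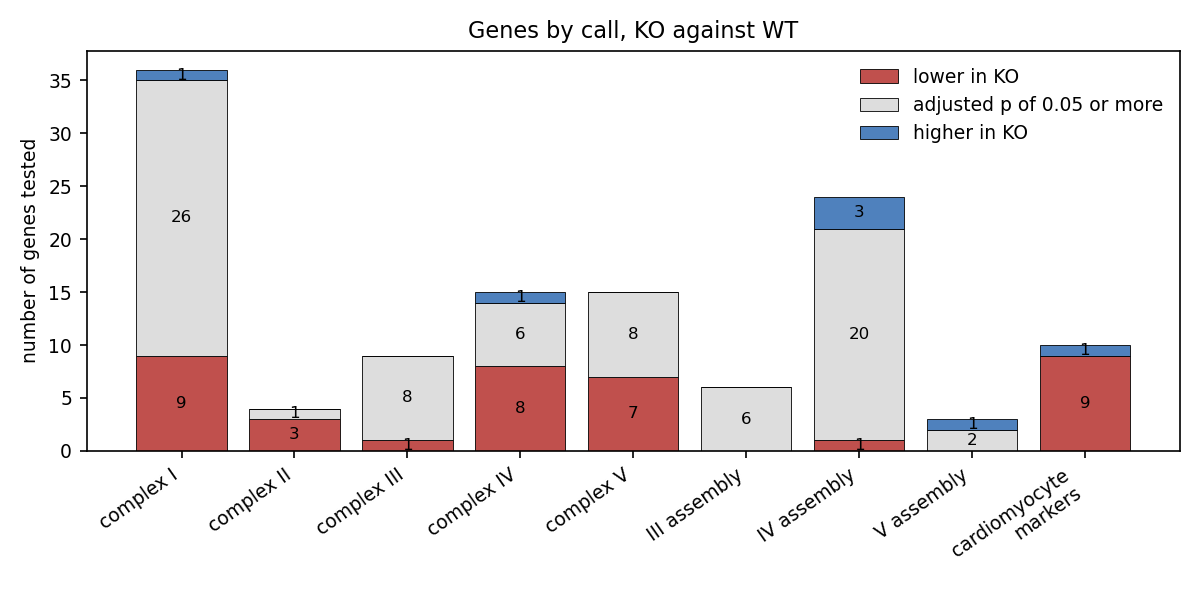
Number of tested genes that were lower (red), higher (blue) or past no threshold (grey) in KO hearts for complexes I to V, the assembly factors of complexes III to V, and cardiomyocyte markers. Lowered genes make up 8 of 15 in complex IV and 7 of 15 in complex V, 1 of 9 in complex III and 1 of 24 among complex IV assembly factors. The lowered share was 15.7% of all genes tested and 26.9% of those of at least 50 CPM, and differences between the lists were not tested.

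Of 19 tested regulators of respiratory genes, 3 were lower and 3 higher, shares close to the 15.7% and 14.6% of all genes. *Ppargc1a*, the coactivator PGC-1alpha that drives mitochondrial gene programmes, was at 338, 336 and 341 CPM in WT and at 281, 285 and 280 CPM in KO hearts (log2 fold change -0.26, SE 0.0295, adjusted p = 1.23e-07, edgeR). The oestrogen-related receptor *Esrra*, a partner of that coactivator, was instead higher, at 67.1, 63.7 and 69.8 CPM in WT and 76.1, 76.3 and 78.8 CPM in KO hearts (log2 fold change 0.21, SE 0.0471, adjusted p = 0.00135, edgeR). In neither gene did the groups overlap. The muscle factors *Mef2a* and *Mef2d* were lower with log2 fold changes of -0.15 and -0.13, and *Polrmt*, the mitochondrial RNA polymerase, and *Hif1a* were higher with 0.24 and 0.11. *Nrf1*, *Gabpa* and *Tfam*, which act on promoters of respiratory genes or on mitochondrial DNA, had log2 fold changes of 0.03, -0.07 and 0.07 and did not pass.

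Markers of the cell types in the heart were read beside the members. For comparison, 15.7% of all genes were lower and 14.6% higher, and of genes of at least 50 CPM 26.9% and 13.1%. The lists are short and were not tested against these shares. Of 10 cardiomyocyte markers, 9 were lower and 1 (*Myh7*) was higher, with a median log2 fold change of -0.24, and their summed level ran from 133262 to 137130 CPM in WT and from 125326 to 126705 CPM in KO hearts. Of 8 fibroblast markers 4 were lower and 0 higher, of 8 endothelial markers 3 and 1, of 5 smooth muscle markers 2 and 1, of 7 immune markers 1 and 0, of 3 erythroid markers 1 and 1, of 5 epicardial markers 0 and 2, and of 6 atrial markers 0 and 3. Summed atrial markers ran from 595 to 601 CPM in WT and from 1006 to 1030 CPM in KO hearts. The 3 higher ones were *Nppa*, *Myl4* and *Myl7*, with means of 372, 142 and 46.3 CPM in WT hearts. In KO hearts these means were 597, 305 and 77.7 CPM. *Nr2f1*, *Stard10* and *Nr2f2* did not pass (log2 fold changes -0.23, -0.09 and 0.06), so the sum does not speak for the whole list. Of the markers of skeletal muscle and brown fat, tissues that also use the muscle isoforms, *Myod1*, *Myog*, *Myf5*, *Myf6*, *Pax7*, *Actn3*, *Ucp1* and *Elovl3* were not analysed here. Of those tested, *Ckm* and *Myh3* were lower, with log2 fold changes of -0.12 and -1.01, *Myh8* was higher with 1.08, and the brown fat markers *Cidea* and *Prdm16* did not pass. *Myh3* and *Myh8*, fetal skeletal myosins, lay at 1.62 and 1.81 CPM in WT hearts. *Ckm* lay at 1116 CPM there, so its level cannot be read as skeletal muscle alone. The part of these marker differences in the members' changes was not tested.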

How the data were processed

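RNA-seq of 3 WT and 3 *Pkm1*-KO hearts was analysed. Per the labels, the authors trimmed reads with cutadapt 1.18, aligned them to mm10 with HISAT2 and used StringTie, and the methods give removal of ribosomal RNA. Raw counts for each gene symbol were deposited by the authors. Their own comparison columns (fold changes, average log2 CPM, p-values, false discovery rates) were not used. Columns name the genotype alone, so letters a, b and c were given to the libraries of each genotype by column order.

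Counts were tested in R 4.3.3 with edgeR 4.0.16 (filterByExpr, 5 genes left out, TMM, quasi-likelihood test, genotype as the only term) with Benjamini-Hochberg adjustment over 13804 genes. The common biological coefficient of variation was 3.42%. Isoform ratios added 0.5 counts and used transcript lengths of the GENCODE annotation of GRCm38, and 13299 symbols matched it directly, 414 by a RefSeq synonym and 73 in RefSeq only, and 23 not at all. Ratios and sums were compared by exact permutation tests. On simulated counts with 200 genes of at least 50 CPM changed, 1.1-fold changes were recovered for 16.5%, 1.2-fold for 97.5% and 1.5-fold for 100%, with 0 in the wrong direction. The changed genes called numbered 33, 195 and 200, and unchanged genes were falsely called 4, 8 and 16 times.

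Members were fixed by name, isoform sets and regulators were named whatever their p, and up to 8 other members per direction (3 in other lists) were named with library values by largest fold change among those passing, to which others were added after their values were seen. Members and lists were chosen with earlier results of these data known. Alternatives were RLE factors (edgeR), library totals, TMM without *Rn45s*, no filter or at least 10 counts, DESeq2 1.42.0, edgeR's exact test, limma 3.58.1 (voom), genes on X and Y left out, WT a and WT b summed, and each library left out. Figures used matplotlib 3.10.9 under Python 3.11.15.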

Additional observations from a re-analysis of the deposited data

How the results depend on the processing

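Across 16 alternatives, 12 of the 18 members that passed the test (*Atp5h*, *Atp5o*, *Cox4i1*, *Cox5a*, *Cox5b*, *Cox6a2*, *Cox6b1*, *Cox6c*, *Cox7a1*, *Cox7c*, *Cox8b* and *Cycs*) passed in each, and 0 of the 18 changed direction. *Atp5b* passed in 7, *Atp5f1* in 8, *Uqcrh* in 14, and *Atp5a1*, *Atp5c1* and *Atp5j2* in 15, each of these 3 failing with library totals alone. Library totals gave 11 lower and 3 higher members, and a log2 difference of -0.00848 for the summed level of complex III and -0.0278 for complex V; that scaling moves the median of all genes to 0.0492 and the median of the members to -0.0354. It also changed the split of all genes from 2168 lower and 2011 higher to 1527 and 2911. With the mean of log2(CPM + 1) in place of the sum, complex V gave -0.0628. DESeq2 called 15 lower and 1 higher member, and 1639 lower and 1362 higher genes in all. With each library left out in turn, 14 to 19 members were lower (14 without KO c) and 1 to 2 higher (2 without WT b). The other alternatives gave 15 to 19 lower and 1 higher. *Pkm*, the Cox6a, Cox7a and Cox8 ratios and the sums of all 3 complexes kept their direction throughout, the sum of complex IV being -0.0604 with library totals. Alternatives were not run for the Cox4i and Cox6b ratios.

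Directions changed only for members that did not pass. With library totals the log2 fold change was 0.0348 for *Atp5k*, 0.00689 for *Cox6a1*, 0.0365 for *Cox6b2*, 0.0406 for *Cox7a2*, 0.0243 for *Cox7a2l*, 0.0210 for *Cyc1* and 0.0241 for *Uqcrc1*, and with TMM without *Rn45s* it was -0.00421 for *Atp5g1*. With each library left out it ran from -0.0273 to 0.0336 for *Atp5g1*, -0.00533 to 0.0345 for *Atp5g3*, -0.0750 to 0.0976 for *Atp5k*, -0.0246 to 0.161 for *Atp5s*, -0.00120 to 0.134 for *Atp5sl*, -0.00808 to 0.356 for *Cox4i2*, -0.0982 to 0.0351 for *Cox6a1*, -0.0451 to 0.0262 for *Cox6b2*, -0.0513 to 0.0192 for *Cox7a2*, -0.0688 to 0.0131 for *Cox7a2l*, -0.175 to 0.0114 for *Cox8a* and -0.0136 to 0.0661 for *Uqcr10*. The cause was not tested.

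No paired analysis was possible because the suffixes of the count columns cannot be tied to the replicate numbers that the labels give; the planned fit with a replicate block was not run for this reason. With 3 libraries per genotype the smallest exact permutation p is 0.1. In simulated counts 1.1-fold changes were mostly missed, but there only 200 genes were changed. In these data 2168 genes were called lower and 2011 higher, so the recovery in simulated counts does not give that of the members. *Atp5a1*, with a KO mean at 94.2% of the WT mean, passed the test, whereas *Cox7b*, at 93.8%, did not. Intervals cover the spread between these libraries only.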
